A study of Mus musculus with 13 samples.

Results

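The 10 genes described here are chemokine and cytokine genes of mouse myoblasts: Ccl2, Ccl7, Ccl5, Cxcl1, Cxcl5, Cxcl10, Cxcl12, Il6, Lif and Csf1. They were chosen by symbol from the 55642 genes of the deposited table, over all of its 13 libraries, and all 10 had enough counts to be tested. The libraries are RNAseq of C2C12 cells, an established line of mouse myoblasts, transfected with nontargeting siRNAs (control KD) or with siRNAs to YBX3 (YBX3 KD), an RNA-binding protein of the Y-box family. All cells were harvested 48 h after transfection. Proliferating myoblasts (0 day) stayed in DMEM with 10% fetal bovine serum, and differentiating myoblasts (1 day) were changed 24 h after transfection to DMEM with 10% horse serum. The groups are control KD at 0 day (n = 4, replicates A to D), YBX3 KD at 0 day (n = 4, replicates A to D), control KD at 1 day (n = 2, replicates C and D) and YBX3 KD at 1 day (n = 3, replicates B to D). The knockdown is transient and leaves part of the target, and no group holds untransfected cells.

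Chemokines are small secreted proteins that attract leukocytes and other cells through G protein-coupled receptors. The CC and CXC families are named for the spacing of their first cysteines. IL6 and LIF signal through the shared receptor subunit gp130 (Il6st) to STAT3, and CSF1 is the growth factor of macrophages, which act with muscle stem cells in muscle repair. Transcription of many of these genes is induced by NF-kappaB or by interferon-activated factors, and many of their mRNAs are short-lived, with AU-rich elements bound by decay factors. Myoblasts are known to secrete CCL2, IL6, LIF and other members of both families.

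Of the 10 genes, 6 have an entry in the RefSeq promoter table used here (GRCm38.p6): Cxcl1, Cxcl10, Cxcl12, Il6, Lif and Csf1. Ccl2, Ccl7, Ccl5 and Cxcl5 have none. The sequences are shown because genes of NF-kappaB and of the interferon response are described below; whether the motifs bear on the levels was not tested. Each run is the 250 bases before the start of the gene, read 5′ to 3′ on the strand of the gene. Capitals mark matches, on either strand, to the motifs searched. These were a kappaB-like motif (GGGA and TTCC separated by 2 bases), an interferon-stimulated response element-like motif (TTTC and TTTC separated by 2 bases), an AP-1-like motif (TGANTCA), a C/EBP-like motif (TTGCNNAA), the Y-box or inverted CCAAT motif (ATTGG) and TATAAA. Cxcl1 lies at chr5:90890995-90891244 (plus strand), Cxcl10 at chr5:92348890-92349139 (minus strand), Il6 at chr5:30012864-30013113 (plus strand), Lif at chr11:4257318-4257567 (plus strand) and Csf1 at chr3:107760470-107760719 (minus strand).
Cxcl1: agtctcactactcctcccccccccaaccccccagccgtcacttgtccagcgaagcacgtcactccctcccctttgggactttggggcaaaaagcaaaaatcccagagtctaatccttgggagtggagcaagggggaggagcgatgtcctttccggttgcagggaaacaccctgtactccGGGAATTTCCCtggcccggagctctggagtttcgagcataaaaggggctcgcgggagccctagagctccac
Cxcl10: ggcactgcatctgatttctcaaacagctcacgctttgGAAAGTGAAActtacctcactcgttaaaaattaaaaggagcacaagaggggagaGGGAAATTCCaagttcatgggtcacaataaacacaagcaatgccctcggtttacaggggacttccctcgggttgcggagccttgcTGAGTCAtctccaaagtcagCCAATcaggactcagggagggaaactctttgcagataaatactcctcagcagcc
Il6: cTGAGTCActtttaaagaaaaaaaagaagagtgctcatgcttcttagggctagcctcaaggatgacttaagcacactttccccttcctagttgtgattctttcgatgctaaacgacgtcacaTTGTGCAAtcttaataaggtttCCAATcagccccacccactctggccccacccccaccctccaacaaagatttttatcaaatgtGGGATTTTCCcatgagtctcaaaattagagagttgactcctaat
Lif: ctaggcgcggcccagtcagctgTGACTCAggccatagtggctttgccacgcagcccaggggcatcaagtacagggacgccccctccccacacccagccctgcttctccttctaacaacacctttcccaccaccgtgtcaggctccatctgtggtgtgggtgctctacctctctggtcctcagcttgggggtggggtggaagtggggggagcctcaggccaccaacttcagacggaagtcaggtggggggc
Csf1: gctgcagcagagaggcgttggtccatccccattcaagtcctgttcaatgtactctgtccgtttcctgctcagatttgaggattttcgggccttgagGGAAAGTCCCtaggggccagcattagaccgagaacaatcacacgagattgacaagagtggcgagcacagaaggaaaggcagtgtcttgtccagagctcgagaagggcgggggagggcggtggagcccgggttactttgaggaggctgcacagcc

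The kappaB-like motif was found in 4 of the 6 promoters, those of Cxcl1, Cxcl10, Il6 and Csf1, and in 316 of 27025 promoters of the table (1.17%). In Cxcl1 the match starts at -71 from the gene start and overlaps a second match on the other strand that starts at -70. The other matches start at -159 in Cxcl10, at -44 in Il6 and, on the other strand, at -154 in Csf1. The AP-1-like motif was found in Cxcl10, Il6 and Lif (6.87% of all promoters), and the interferon-stimulated response element-like motif only in Cxcl10 among the 6 (3.04%). The Y-box motif was found in Cxcl10 and Il6 (34.5% of all promoters) and the C/EBP-like motif in Il6 (9.55%). TATAAA was found in none of the 6 windows (13% of all promoters). The Cxcl12 window, at chr6:117168285-117168534 (plus strand), held none of the motifs and is not printed. These are matches of letters and not mapped binding sites.

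Of the 10 genes, 4 lie on chromosome 11 of GRCm39 (Ccl2, Ccl7, Ccl5 and Lif) and 4 on chromosome 5 (Cxcl5, Cxcl1, Cxcl10 and Il6). Ccl2 (ENSMUSG00000035385) spans 81926397 to 81928279 and Ccl7 (ENSMUSG00000035373) lies next to it, from 81936532 to 81938351, both on the plus strand. Cxcl5 (ENSMUSG00000029371) spans 90907186 to 90909483 and Cxcl1 (ENSMUSG00000029380) 91039094 to 91040974 on chromosome 5. Csf1 (ENSMUSG00000014599) lies on chromosome 3 from 107648364 to 107667806, and Cxcl12 (ENSMUSG00000061353) on chromosome 6 from 117144945 to 117158328. All are protein-coding genes. For 5 of them (Csf1, Il6, Cxcl5, Cxcl10 and Ccl5) the annotation holds a gene on the opposite strand that overlaps. The study calls the libraries stranded, but it names both a stranded mRNA kit and a TruSeq RNA kit. Whether the counting used the strand is not given in the sources used here.

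Total counts per library ranged from 33451547 in control KD at 0 day replicate D to 71811371 in YBX3 KD at 0 day replicate B. Levels are in CPM (counts per TMM-scaled 1e+06 counts of the library). Ybx3, the targeted gene, was at 265 to 347 CPM in the 6 control KD libraries (median 314) and at 28.7 to 71.5 CPM in the 7 YBX3 KD libraries (median 42.9). Every YBX3 KD library was below every control KD library. Ybx3 fell by 2.81 on the log2 scale (standard error 0.17). Its p-value in the quasi-likelihood test of edgeR, after Benjamini-Hochberg adjustment over 16848 genes (edgeR adjusted p below), was 5.26e-06. Without replicate D, described next, the log2 fold change was -2.79.

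Replicate D differed from the other replicates in the level of most of the 10 genes. For 8 of the 10 genes, all but Cxcl12 and Lif, the library of replicate D was the lowest of its group in each of the 4 groups, of which control KD at 1 day holds only replicates C and D. Over all genes tested, 21.3% were lowest in replicate D in all 4 groups. In control KD at 0 day, replicate D was at 21.2% of the mean of the other 3 libraries for Ccl5, 52.4% for Ccl7, 60.9% for Ccl2, 68.6% for Csf1, 74.1% for Cxcl5, 74.6% for Cxcl1 and 9.05% for Cxcl10, and Il6 had 0 counts. It was at 153% for Cxcl12 and 319% for Lif. In control KD at 1 day replicate D was the lower library for these genes too (88.7% and 80.9% of replicate C), and in YBX3 KD it was at 125% and 109.6% at 0 day and 134% and 189% at 1 day. The summed level of the keratinocyte or epithelial markers Epcam, Krt5 and Krt14 was 18.2 to 29.8 CPM in the 4 libraries of replicate D and 4.43 to 9.43 CPM in the other 9. Krt14 made up nearly all of it, Epcam had 0 counts in all 13 libraries, and Krt5 had at most 4 counts. The part of this difference in the results below was not tested, and values without its 4 libraries are given beside many of the results.

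**Figure D1:**
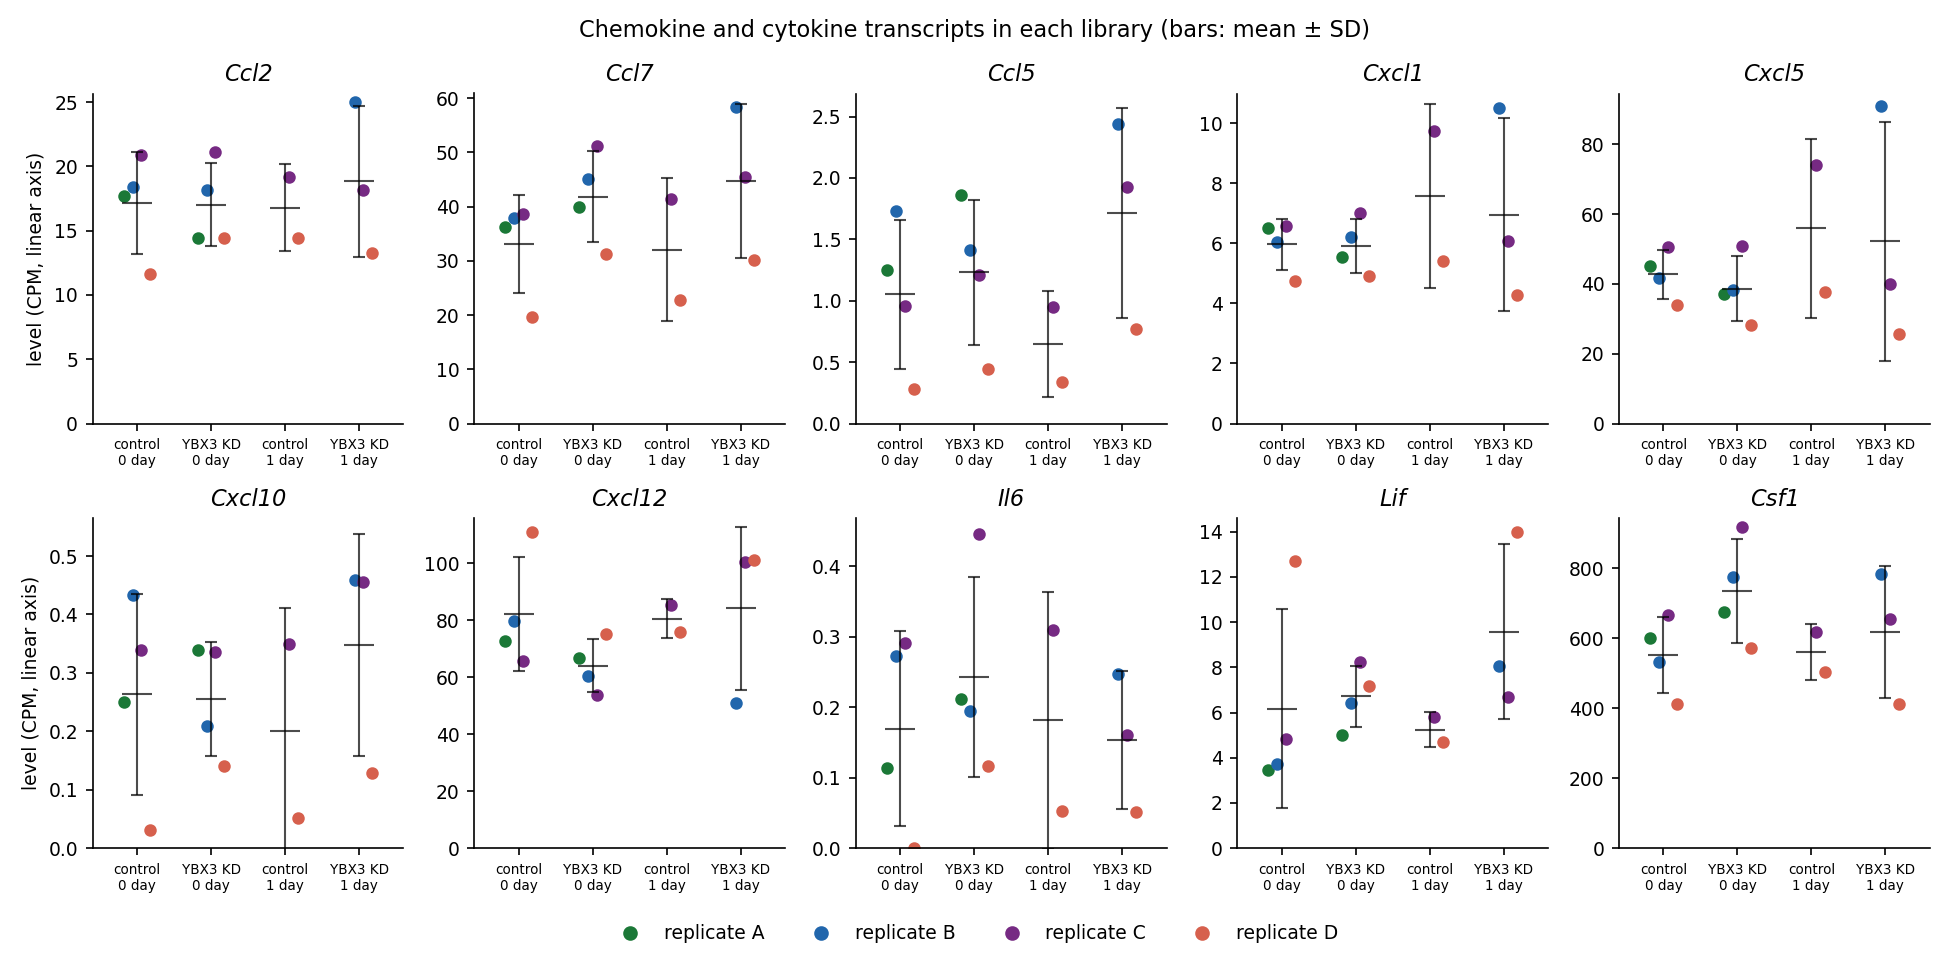
Level of each of the 10 transcripts (CPM, linear axes starting at 0) in the 13 libraries, by group and coloured by replicate letter; black bars give the mean ± SD of the group (cut at 0). Replicate D is the lowest point of its group in all 4 groups for 8 of the 10 genes, and the control KD and YBX3 KD points overlap in every panel.

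The myoblast label was checked against 8 markers. Itga7 had the highest CPM of them and the summed level was 678 to 909.9 CPM. Myf5 was at 31.3 to 73.5 CPM and Cdh15 at 99.6 to 163 CPM, while Myod1 was at 0.601 to 3.32 CPM (log2 fold change in YBX3 KD 1.11, edgeR adjusted p = 0.0726) and Pax7 had at most 9 counts in a library. Des was at 15.5 to 54.8 CPM. Myog, a marker of differentiation, was at 0.0523 to 3.46 CPM, and 1 day against 0 day was 1.07 on the log2 scale (edgeR adjusted p = 1). Myod1 passed with the letter block described below (adjusted p = 0.0155), without replicate D (0.00632) and with DESeq2 (0.00735). Ncam1 (0.29, edgeR adjusted p = 0.0963) also passed in these 3 settings (0.0131, 0.0222 and 0.0448). Of all genes 9.78% passed with the letter block, 12.5% without replicate D and 2.34% with all libraries and no block, and DESeq2 called 1109 genes. The 10 macrophage and leukocyte markers summed to 11.3 to 15.7 CPM, with the highest CPM in Cd14. The macrophage marker Adgre1 and the myeloid and NK cell marker Tyrobp had 0 counts in all libraries, Ptprc had at most 2 and Itgam at most 4. Lyz2 was the marker of this list that rose in YBX3 KD, from 0.591 ± 0.171 CPM (mean ± SD of 6 libraries) to 1.18 ± 0.28 CPM (7 libraries; log2 fold change 0.99, edgeR adjusted p = 0.0425), while Cd14, Cd68 and Csf1r did not pass the test. Fibroblast markers summed to 2969 to 5907 CPM, almost all from Col1a1, and Thy1 had at most 1 count. Col1a1 was higher in YBX3 KD in all 6 letter pairs, as 9.37% of genes were. It passed with the letter block (0.37, edgeR adjusted p = 0.046) and without replicate D (0.42, edgeR adjusted p = 0.0455), but not with all libraries and no block (0.34, edgeR adjusted p = 0.295). Endothelial markers summed to 0.776 to 1.74 CPM, of which Tek rose in YBX3 KD (log2 fold change 1.74, edgeR adjusted p = 0.0375) at 2 to 22 counts a library. In these bulk libraries, fewer cells that express a gene and less RNA per cell cannot be told apart.

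Levels of the 10 genes were compared with each other per length, as CPM per kb of the canonical transcript, in control KD at 0 day (n = 4). Csf1 had the highest level, 131 ± 26.0 CPM per kb (SD), which is above 97.3% of the 16763 tested genes with a length. Its lowest library (97.9 CPM per kb) was above the highest library of every other member. Ccl7 (41.0 ± 11.2), Cxcl5 (27.2 ± 4.42), Ccl2 (21.1 ± 4.87) and Cxcl12 (14.5 ± 3.53 CPM per kb) followed, and neighbours in this order overlapped. Cxcl1 (6.22 ± 0.88 CPM per kb, percentile 52.8) came next and overlapped neither neighbour. With the length of the union of exons it was at 3.17 CPM per kb and its libraries (2.53 to 3.5) overlapped those of Lif (0.748 to 2.76).

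Ccl5 (1.97 ± 1.14) and Lif (1.53 ± 1.09 CPM per kb) overlapped each other and changed places when the length of the union of exons was used. Cxcl10 (0.239 ± 0.156) and Il6 (0.149 ± 0.121 CPM per kb) were lowest, overlapped each other and lay below all libraries of Lif. Their percentiles among tested genes were 13.5 and 9.23.

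**Figure D2:**
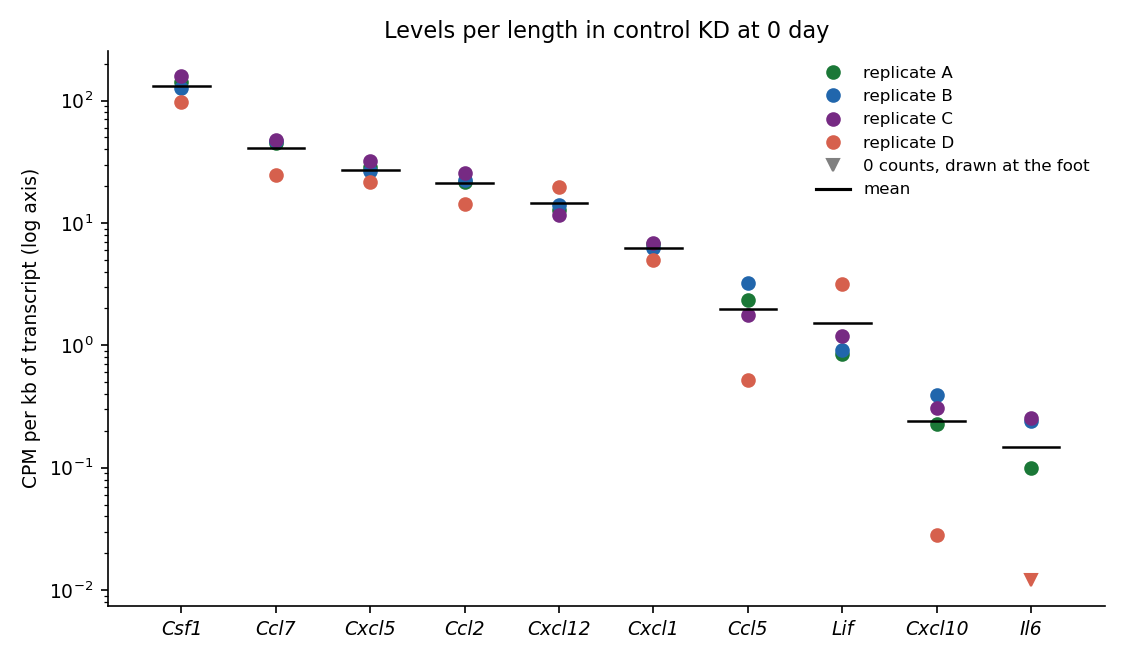
Level per length (CPM per kb of canonical transcript, log axis) of the 10 transcripts in the 4 libraries of control KD at 0 day, coloured by replicate letter, with black lines at the means. Csf1 stands above the others at 131 CPM per kb, Cxcl10 and Il6 are below 1 CPM per kb, and the triangle marks the Il6 library with 0 counts.

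To ask which transcripts depend on YBX3, the siRNAs were compared over both days with the day as a term. None of the 10 genes passed an edgeR adjusted p under 0.05, where 394 of 16848 genes did (2.34%). The fold change above 1.3 and adjusted p under 0.001 that the study used gave 19 genes (0.113%) and none of the 10 with the edgeR test. The study applied these thresholds to DESeq2 with independent hypothesis weighting, so its number of genes is not the one given here. No member had an unadjusted p under 0.05 in this fit, against 2636 of all genes, and DESeq2 called none of the 10 and 1109 genes in all. Log2 fold changes ran from -0.20 in Cxcl12 to 0.64 in Ccl5 and were above 0 for 7 of the 10 genes. Their median was 0.21, against 0.0008 for all genes tested. For no member did the 6 control KD and 7 YBX3 KD libraries separate without overlap, as they did for 2.03% of genes.

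The replicate letter was taken to pair the libraries (see the methods), though the study states no pairing of them. It allows 6 pairs of a YBX3 KD and a control KD library of the same letter and day. With the letter as a block, 1647 genes passed (9.78%) and so did 1 of the 10, Ccl7. In this edgeR fit 3 members had an unadjusted p under 0.05. These were Ccl7 (0.000961), Ccl5 (0.0199, edgeR adjusted p = 0.105) and Csf1 (0.0326, edgeR adjusted p = 0.138). Ccl7 was also the only member higher in YBX3 KD in all 6 pairs, as 9.37% of genes were. No member was lower in all 6 pairs, as 7.97% of genes were. Without the 4 libraries of replicate D, 2155 of 17271 genes passed (12.5%) and so did 1 of the 10, Lif. A share of 1 in 10 is close to the share of all genes called in both of these fits.

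**Figure D3:**
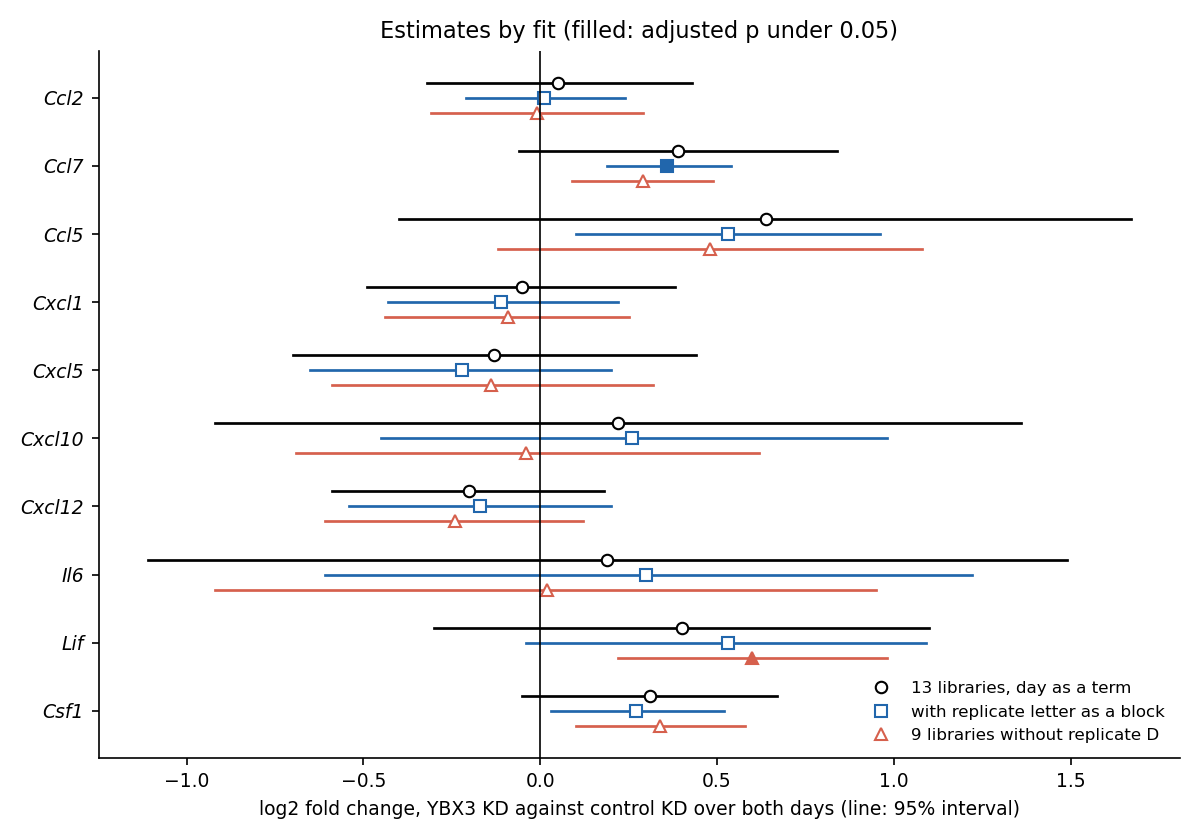
Log2 fold change of YBX3 KD against control KD over both days with its 95% interval for each of the 10 genes, from the fit to 13 libraries, the same fit with the replicate letter as a block, and the fit to the 9 libraries without replicate D; filled symbols passed an adjusted p under 0.05. Only Ccl7 with the block (0.36) and Lif without replicate D (0.60) are filled.

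Ccl7 (MCP-3) is a CC chemokine that attracts monocytes through CCR2. In control KD at 0 day it was at 36.2, 37.8, 38.7 and 19.7 CPM in replicates A to D, and in YBX3 KD at 0 day at 39.9, 45.1, 51.1 and 31.2 CPM. In control KD at 1 day replicates C and D were at 41.4 and 22.7 CPM, and in YBX3 KD at 1 day replicates B to D were at 58.4, 45.5 and 30.1 CPM. Each YBX3 KD library was higher than the control KD library of its letter and day, but the groups overlapped, and replicate D was the lowest library of each group. The log2 differences within the letters were 0.14, 0.26, 0.40 and 0.67 at 0 day in replicates A to D and 0.14 and 0.41 at 1 day in C and D. Without a block the log2 fold change was 0.39 (standard error 0.21, 95% interval -0.06 to 0.84, edgeR adjusted p = 0.405). With the letter as a block Ccl7 rose by 0.36 on the log2 scale (standard error 0.08, 95% interval 0.19 to 0.54, edgeR adjusted p = 0.0227), and with DESeq2 and the same block the adjusted p was 0.00162. Without replicate D it was 0.29 with no block (edgeR adjusted p = 0.0667) and 0.28 with the block (edgeR adjusted p = 0.0877), and did not pass in either fit. Over all settings the adjusted p of Ccl7 lay between 0.00162 and 0.609.

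Ccl2 (MCP-1), its neighbour and the main ligand of CCR2, did not follow it. Its levels were 17.7, 18.4, 20.9 and 11.6 CPM in replicates A to D of control KD at 0 day and 14.4, 18.2, 21.1 and 14.4 CPM in YBX3 KD. At 1 day they were 19.2 and 14.4 CPM in control KD replicates C and D, and 25.0, 18.2 and 13.3 CPM in YBX3 KD replicates B to D. YBX3 KD was higher in 2 of 6 letter pairs, and the groups overlapped. Its log2 fold change was 0.05 (standard error 0.17, 95% interval -0.32 to 0.43, edgeR adjusted p = 0.912), and it was -0.01 without replicate D. Whether Ccl2 and Ccl7 differ in their response was not tested.

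Ccl5 (RANTES), a chemokine that recruits T cells and monocytes, had few counts (9 to 138 a library). It was at 1.25, 1.73, 0.954 and 0.278 CPM in replicates A to D of control KD at 0 day and at 1.86, 1.41, 1.21 and 0.446 CPM in YBX3 KD. At 1 day it was at 0.95 and 0.34 CPM in control KD replicates C and D and at 2.44, 1.93 and 0.768 CPM in YBX3 KD replicates B to D. It was higher in YBX3 KD in 5 of 6 letter pairs, with replicate B at 0 day the exception, and the groups overlapped. The log2 fold change was 0.64 (standard error 0.48, 95% interval -0.40 to 1.67, edgeR adjusted p = 0.573), and 0.48 without replicate D (standard error 0.27, edgeR adjusted p = 0.275).

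Cxcl1 and Cxcl5 are neutrophil attractants that act through CXCR2. Cxcl5 was at 45.1, 41.6, 50.5 and 33.9 CPM in replicates A to D of control KD at 0 day and at 37.0, 38.3, 50.9 and 28.2 CPM in YBX3 KD. At 1 day it was at 74.1 and 37.7 CPM in control KD replicates C and D and at 90.9, 40.1 and 25.6 CPM in YBX3 KD replicates B to D. The highest libraries were thus 1 library of each siRNA at 1 day, control KD replicate C and YBX3 KD replicate B, and the groups overlapped. It was lower in YBX3 KD in 5 of 6 letter pairs, and the estimate on the log2 scale was -0.13 (standard error 0.26, 95% interval -0.70 to 0.44, edgeR adjusted p = 0.855). Without replicate D it was -0.14 (edgeR adjusted p = 0.698).

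Cxcl1 was at 6.5, 6.03, 6.58 and 4.75 CPM in replicates A to D of control KD at 0 day and at 5.55, 6.20, 7.01 and 4.91 CPM in YBX3 KD. At 1 day it was at 9.74 and 5.41 CPM in control KD replicates C and D and at 10.5, 6.07 and 4.27 CPM in YBX3 KD replicates B to D. The same 2 libraries were the highest as for Cxcl5, and 3 of 6 letter pairs were higher in YBX3 KD. The log2 fold change was -0.05 (standard error 0.20, 95% interval -0.49 to 0.38, edgeR adjusted p = 0.925), and -0.09 without replicate D (edgeR adjusted p = 0.736).

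Cxcl12 (SDF-1), the ligand of CXCR4 that guides migrating muscle precursors, was at 72.6, 79.7, 65.8 and 111 CPM in replicates A to D of control KD at 0 day. In YBX3 KD at 0 day it was at 66.7, 60.5, 53.7 and 75.3 CPM. At 1 day it was at 85.4 and 75.7 CPM in control KD replicates C and D and at 51.0, 100.3 and 101 CPM in YBX3 KD replicates B to D. It was lower in YBX3 KD in all 4 letter pairs at 0 day and higher in both at 1 day. The log2 fold change was -0.36 (standard error 0.22, edgeR adjusted p = 0.619) at 0 day and 0.06 (standard error 0.29, edgeR adjusted p = 0.963) at 1 day. The difference between the days, 0.42 on the log2 scale (standard error 0.36, edgeR adjusted p = 1), did not pass the test. Without replicate D the estimate at 1 day was -0.18 (standard error 0.31, edgeR adjusted p = 0.894), and the difference was 0.10 (standard error 0.37, edgeR adjusted p = 1). These rest on 1 control KD library at 1 day, assumed to vary like the libraries of the other groups.

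Cxcl10 (IP-10), an interferon-induced ligand of CXCR3, had 1 to 26 counts a library, and the library of control KD at 0 day replicate D was the lowest at 0.0309 CPM. Its levels ranged from 0.0309 to 0.433 CPM (median 0.295) in control KD and from 0.128 to 0.459 CPM (median 0.335) in YBX3 KD. The estimate on the log2 scale was 0.22 (standard error 0.53, 95% interval -0.92 to 1.36, edgeR adjusted p = 0.879) and -0.04 without replicate D (standard error 0.29, 95% interval -0.69 to 0.62).

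Lif, a gp130 cytokine that promotes myoblast proliferation, was at 3.44, 3.71, 4.82 and 12.7 CPM in replicates A to D of control KD at 0 day and at 5.02, 6.41, 8.24 and 7.19 CPM in YBX3 KD. At 1 day it was at 5.78 and 4.68 CPM in control KD replicates C and D and at 8.07, 6.69 and 14 CPM in YBX3 KD replicates B to D. Among replicates A to C every YBX3 KD library at 0 day was above every control KD library at 0 day, and replicate D of control KD at 0 day, at 12.7 CPM, was above all of them. The log2 difference within letters was 0.54, 0.78 and 0.77 in replicates A to C at 0 day and -0.82 in D, and 0.21 and 1.57 in C and D at 1 day.

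With all libraries the log2 fold change of Lif was 0.40 (standard error 0.32, 95% interval -0.30 to 1.10, edgeR adjusted p = 0.602). Without the 4 libraries of replicate D Lif rose, by 0.60 on the log2 scale (standard error 0.17, 95% interval 0.22 to 0.98, edgeR adjusted p = 0.0477), in 4 of the 4 letter pairs left. Leaving out only control KD at 0 day replicate D gave 0.80 (standard error 0.20, edgeR adjusted p = 0.0407). With the letter as a block and all libraries it was 0.53 (standard error 0.25, 95% interval -0.04 to 1.09) and did not pass (edgeR adjusted p = 0.201). The adjusted p of Lif lay between 0.0292 and 0.763 over all settings.

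Il6, which acts on myoblasts through gp130 and IL6RA, was near the limit of detection, with 0 to 20 counts a library. It was at 0 to 0.31 CPM (median 0.194) in control KD and at 0.0512 to 0.446 CPM (median 0.195) in YBX3 KD. Control KD at 0 day replicate D had 0 counts, which allows up to 0.0926 CPM (3 counts, counting error only). The log2 fold change of 0.19 had a standard error of 0.60 and a 95% interval of -1.11 to 1.49 (edgeR adjusted p = 0.911). Without replicate D it was 0.02 (standard error 0.42).

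Csf1, the ligand of CSF1R and the most abundant member per length, was at 600.1, 531, 666 and 411 CPM in replicates A to D of control KD at 0 day and at 674, 775, 918 and 571 CPM in YBX3 KD. At 1 day it was at 617 and 503 CPM in control KD replicates C and D and at 782, 656 and 412 CPM in YBX3 KD replicates B to D. It was higher in YBX3 KD in 5 of 6 letter pairs, by 0.17 to 0.55 on the log2 scale in the 4 pairs at 0 day and by 0.09 in replicate C at 1 day, and lower in replicate D at 1 day (-0.29). The groups overlapped, and replicate D was the lowest library of each group.

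Over both days the log2 fold change of Csf1 was 0.31 (standard error 0.17, 95% interval -0.05 to 0.67, edgeR adjusted p = 0.403). At 0 day it was 0.41 (standard error 0.21, edgeR adjusted p = 0.526). Csf1 and Ccl7 passed at 0 day only with DESeq2 and the letter block, which was not among the settings planned beforehand, with log2 fold changes of 0.40 (adjusted p = 0.0306) and 0.36 (adjusted p = 0.0357). That fit called 1267 genes in all, against 72 with edgeR and no block. Without replicate D the fold change over both days was 0.34 (standard error 0.11, edgeR adjusted p = 0.0644), and over all settings the adjusted p lay between 0.0644 and 0.602.

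**Figure D4:**
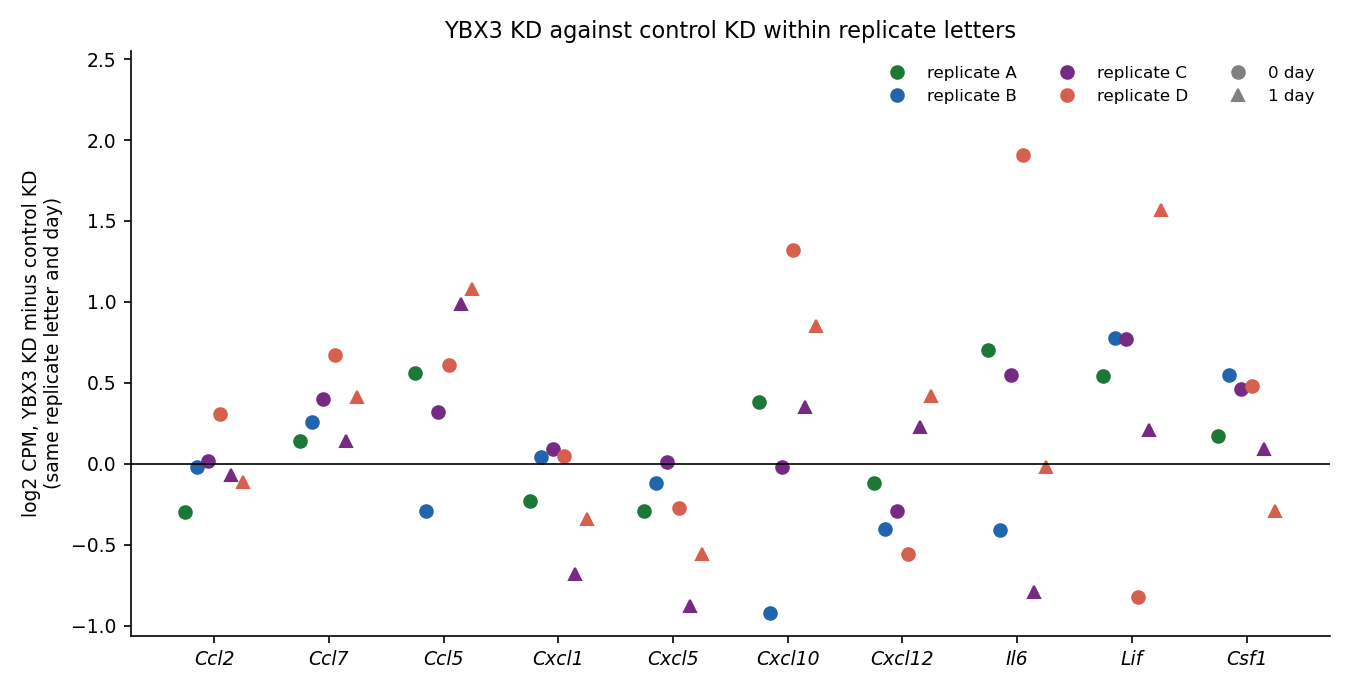
Log2 CPM of YBX3 KD minus control KD (prior count of 2) within each replicate letter and day, for each of the 10 genes; circles are 0 day, triangles 1 day, and colours the letters. All 6 points of Ccl7 lie above 0, 5 of 6 do so for Ccl5, Lif and Csf1, and 5 of 6 points of Cxcl5 lie below 0; the point of Il6 in replicate D at 0 day rests on a control library with 0 counts.

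Within a day, no member passed at 0 day, where 72 genes did (0.427%), or at 1 day, where 12 genes did (0.0712%). No member had an unadjusted p under 0.05 there, and DESeq2 called none of the 10 and 467 and 123 genes in all. Blocking by letter, 399 genes passed at 0 day and 12 at 1 day with edgeR, and none of the 10. Unadjusted p was then under 0.05 for Ccl7 (0.00554) and Csf1 (0.00687) at 0 day. At 1 day it was so for Ccl5 (0.00534), Ccl7 (0.0297) and Lif (0.0408). The estimate of Lif at 0 day was 0.13 with all libraries and no block, and 0.71 without replicate D. The largest estimates at 1 day were those of Ccl5, at 1.39 (standard error 0.77, edgeR adjusted p = 0.714), and Lif, at 0.87 (standard error 0.53, edgeR adjusted p = 0.732), with 2 control KD libraries to compare with. Without replicate D they were 1.21 (edgeR adjusted p = 0.389) and 0.36 (edgeR adjusted p = 0.766), and that of Lif was below the 0.39 of Cxcl10. Control KD at 1 day is then 1 library, assumed to vary like the other groups, from which the spread is taken. In that setting 948 genes passed at 0 day and 21 at 1 day, and none of the 10. The effect of YBX3 KD did not pass a test of difference between the days for any member, nor for any of the 16848 genes (0%; 444 at an unadjusted p under 0.05, and 1 by DESeq2). The differences ran from -0.69 in Il6 to 1.18 in Ccl5. That of Lif was 0.74 with all libraries and -0.35 without replicate D, where 2 genes passed and none of the 10.

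The change of medium was examined by comparing 1 day with 0 day. No gene passed over both siRNAs (0%), in control KD (0%) or in YBX3 KD (0%) with edgeR's test. At an unadjusted p under 0.05 there were 477, 242 and 721 genes, of which none was a member, and DESeq2 called 2, 4 and 2 genes and none of the 10. Without replicate D edgeR called 161, 4 and 40 genes, and again none of the 10. Over both siRNAs 8 of the 10 members had a log2 fold change above 0, from -0.31 in Il6 to 0.41 in Cxcl5, with a median of 0.09 against 0.002 for all genes. Cxcl5 had a standard error of 0.27 and an edgeR adjusted p of 1, and without replicate D it was at 0.66 (unadjusted p = 0.0108, edgeR adjusted p = 0.25). Cxcl1 was at 0.28 (standard error 0.21) and, without replicate D, at 0.49 (unadjusted p = 0.0124, edgeR adjusted p = 0.261). Of the 5 pairs of a 1 day and a 0 day library with the same letter and siRNA, Cxcl5 was higher in 3, by 1.25 on the log2 scale in YBX3 KD replicate B, 0.55 in control KD replicate C and 0.15 in control KD replicate D. It was lower in YBX3 KD replicates C and D.

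Across the 13 libraries, the genes most like each member were found by the mean absolute difference of log2 CPM, each gene centred on its own mean. Cxcl5 was most like Cxcl1 (0.117) and then Dusp9 (0.156), and Cxcl1 was most like Fam185a and Dusp9 (0.104 each). Ccl5 was most like Lpl (0.299) and then Cxcl10 (0.31), and Cxcl10 was most like Lpl (0.308) and Tlcd4 (0.309). Among the other chemokines, Ccl2 was most like Tsc22d2 and Eif5 (0.08 each), Ccl7 most like Dusp14 (0.103) and Erlin1 (0.11), and Cxcl12 most like Foxo4 (0.109) and Emb (0.11). For the cytokines the genes were Cyp1b1 (0.138) and Loxl4 (0.166) for Lif, Eaf1 (0.079) and Ugcg (0.089) for Csf1, and Gm17096 (0.286) and Alox8 (0.289) for Il6. The measure takes in the step between replicate D and the other libraries. The SD over the libraries ran from 0.31 in Ccl2 to 0.97 in Il6 on the log2 scale.

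Chemokine receptors and the receptors of IL6, LIF and CSF1 were listed next (18 genes). Of these, 2 had 0 counts, 8 were tested and 1 rose in YBX3 KD, Cxcr4, the receptor of CXCL12. Cxcr4 was at 3.61 to 7.53 CPM (median 5.5) in the 6 control KD libraries and at 5.10 to 11.0 CPM (median 9.23) in the 7 YBX3 KD libraries. It was higher in all 6 letter pairs, as 9.37% of all genes were, although the groups overlapped. Its log2 fold change was 0.57 (standard error 0.13, edgeR adjusted p = 0.0444), 0.58 with the letter as a block and 0.55 without replicate D. Of all genes 2.34%, 9.78% and 12.5% passed in these 3 fits. The other tested receptors were Ackr3, Ackr4, Csf1r, Cxcr2, Il6ra, Il6st and Lifr. The gp130 subunit Il6st was at 124 to 153 CPM, Ackr3, a second receptor of CXCL12, at 31.1 to 62.5 CPM, Lifr at 15.1 to 33.6 CPM and Il6ra at 12.1 to 40.4 CPM. Ccr2, the receptor of CCL2 and CCL7, had at most 1 count, Ccr1 at most 2 and Cxcr3 at most 8. Csf1r was at 0.41 to 1.57 CPM, Cxcr2 at 0.0523 to 0.424 CPM and Ackr4 at 0.0228 to 0.611 CPM. Ccr4 and Ccr10 had at most 3 counts, Ackr2 at most 2 and Cxcr1 at most 1, and Ackr1 and Ccr3 were the receptors with 0. The median log2 fold change of the 8 tested receptors was 0.33.

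Of 28 other chemokine genes 21 had a count and 5 were tested (Ccl8, Ccl9, Ccl25, Cx3cl1 and Ppbp), with a median log2 fold change of 0.47 in YBX3 KD. None passed with edgeR (2 at an unadjusted p under 0.05) or with DESeq2, which gave an adjusted p for 4 of them. Cx3cl1, the membrane-bound chemokine fractalkine, was at 17.4 ± 3.93 CPM in control KD (mean ± SD, n = 6) and 13.5 ± 3.40 CPM in YBX3 KD (n = 7) (log2 fold change -0.38, edgeR adjusted p = 0.38). Ccl9 was at 4.12 ± 3.44 and 5.98 ± 2.79 CPM (log2 fold change 0.47, edgeR adjusted p = 0.661). With the letter as a block 1 passed, Ccl8 (0.90, edgeR adjusted p = 0.0341). Without replicate D 2 passed, Ccl8 (0.69, edgeR adjusted p = 0.0213) and Ccl9 (0.92, edgeR adjusted p = 0.00102). In these fits 9.78% and 12.5% of all genes passed, against 2.34% with all libraries and no block. Ccl8 was named after its values were seen.

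Of 33 other cytokine genes 18 were tested, with a median log2 fold change of 0.10, and none passed with edgeR (1 at an unadjusted p under 0.05) or with DESeq2. Mif, a cytokine that acts through CD74, was at 352 ± 44.0 CPM in control KD (mean ± SD, n = 6) and 309.8 ± 67.9 CPM in YBX3 KD (n = 7), and Kitl, the ligand of KIT, at 81.0 ± 30.4 and 76.4 ± 30.7 CPM. Blocking by letter, Il34, the second ligand of CSF1R (0.44, edgeR adjusted p = 0.0124), and Il18 (0.55, edgeR adjusted p = 0.0399) passed. Without replicate D Il34 (0.48, edgeR adjusted p = 0.0108) and Il11 (1.06, edgeR adjusted p = 0.0249) passed. The shares of all genes that passed in these fits were 9.78% and 12.5%. These 3 genes were named after their values were seen. Tnf, Il1a and Il1b, the classical inducers of chemokines, were not among the tested genes.

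Of 22 genes of NF-kappaB factors and feedback, 20 were tested, 2 rose and none fell in YBX3 KD, and their median log2 fold change was 0.06. Ikbkg, which encodes the NEMO subunit of the kinase that activates NF-kappaB, rose from 78.4 ± 5.39 CPM (mean ± SD of 6 libraries) to 107 ± 4.77 CPM (7 libraries; log2 fold change 0.45, standard error 0.06, edgeR adjusted p = 0.00223). Cyld, a deubiquitinase that restrains NF-kappaB, rose from 67.0 ± 5.83 to 87.4 ± 9.32 CPM (log2 fold change 0.39, standard error 0.08, edgeR adjusted p = 0.0307). Both were higher in all 6 letter pairs, as 9.37% of all genes were. The pairs hold libraries already used in the test. Nfkbia, a feedback target, was at 19.4 ± 4.16 and 20.3 ± 2.5 CPM (log2 fold change 0.05, edgeR adjusted p = 0.887). Without replicate D Tnfaip3 passed as well (0.45, edgeR adjusted p = 0.00839). Of all genes 2.34% passed with all libraries and 12.5% without replicate D. Nfkbia and Tnfaip3 were named after their values were seen.

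All 16 genes of gp130 and STAT3 signalling were tested and none passed with edgeR (0 at an unadjusted p under 0.05) or with DESeq2. Those with the highest CPM, which is not a comparison per length, were Jak1, at 255 ± 7.28 CPM in control KD (mean ± SD, n = 6) and 261 ± 12.4 CPM in YBX3 KD (n = 7), and Ptpn11, at 216 ± 22.6 and 214 ± 22.9 CPM. The median log2 fold change was 0.06, and the feedback gene Socs3, named after its value was seen, was at -0.09 (standard error 0.13, edgeR adjusted p = 0.765). Without replicate D 1 gene passed, Tyk2 (0.29, edgeR adjusted p = 0.0168), where 12.5% of all genes did.

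Of 32 symbols of interferon response and RNA sensing, 31 were matched and 29 tested. Their median log2 fold change in YBX3 KD was 0.32, against 0.0008 for all genes, and 26 of the 29 were above 0. Of these, 2 rose and none fell. Mx1, an antiviral GTPase, rose from 0.134 ± 0.0616 CPM (mean ± SD of 6 libraries) to 0.586 ± 0.27 CPM (7 libraries; log2 fold change 2.07, standard error 0.39, edgeR adjusted p = 0.0179), at 1 to 38 counts a library. Rsad2 (viperin) rose from 3.33 ± 0.734 to 5.87 ± 0.735 CPM (log2 fold change 0.84, standard error 0.15, edgeR adjusted p = 0.0132). Both were higher in all 6 letter pairs, as 9.37% of all genes were. Blocking by letter, where 9.78% of all genes passed against 2.34% without a block, 4 rose, Mx1 and Rsad2 and also Ifih1 (0.39, edgeR adjusted p = 0.0428) and Irf9 (0.38, edgeR adjusted p = 0.0401), named after their values were seen. Without replicate D 3 rose, Mx1, Rsad2 and Ifih1, while Irf9, at 0.34, did not pass (edgeR adjusted p = 0.157), and DESeq2 called 3. In all, 12.5% of genes passed without replicate D, and DESeq2 called 1109 genes. Cxcl10, which belongs to the interferon response, had an estimate of 0.22 with an interval that reached from -0.92 to 1.36.

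Of 15 genes of AU-rich element binding and cytokine mRNA decay, all were tested, none rose and 2 fell, Ybx3 itself and Khsrp, which encodes the decay factor KSRP. Khsrp fell from 273 ± 20.3 CPM (mean ± SD of 6 libraries) to 219 ± 9.41 CPM (7 libraries; log2 fold change -0.33, standard error 0.06, edgeR adjusted p = 0.0109). It was lower in all 6 letter pairs, as 7.97% of all genes were. Ybx1 passed as well with the letter block (-0.31, edgeR adjusted p = 0.0286), where 9.78% of all genes passed. Without replicate D, where 12.5% of all genes passed against 2.34% with all libraries, 5 fell, Ybx3, Khsrp, Ybx1 (-0.29, edgeR adjusted p = 0.0391), Hnrnpd (-0.26, edgeR adjusted p = 0.00769) and Elavl1 (-0.19, edgeR adjusted p = 0.0463). Zfp36, which encodes tristetraprolin, was at 15.2 ± 3.79 and 18 ± 3.73 CPM (log2 fold change 0.25, edgeR adjusted p = 0.53). The list median was -0.05.

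In the comparison of 1 day with 0 day no gene of any of the 7 lists passed with edgeR. At an unadjusted p under 0.05 there were 1 receptor, 1 gene each of the NF-kappaB, gp130 and decay lists, and none of the other 3 lists. DESeq2 called 1 of the receptors, Cxcr4, which was lower at 1 day (log2 fold change -0.71, DESeq2 adjusted p = 0.0105; -0.70 and adjusted p = 1 with edgeR).

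**Figure D5:**
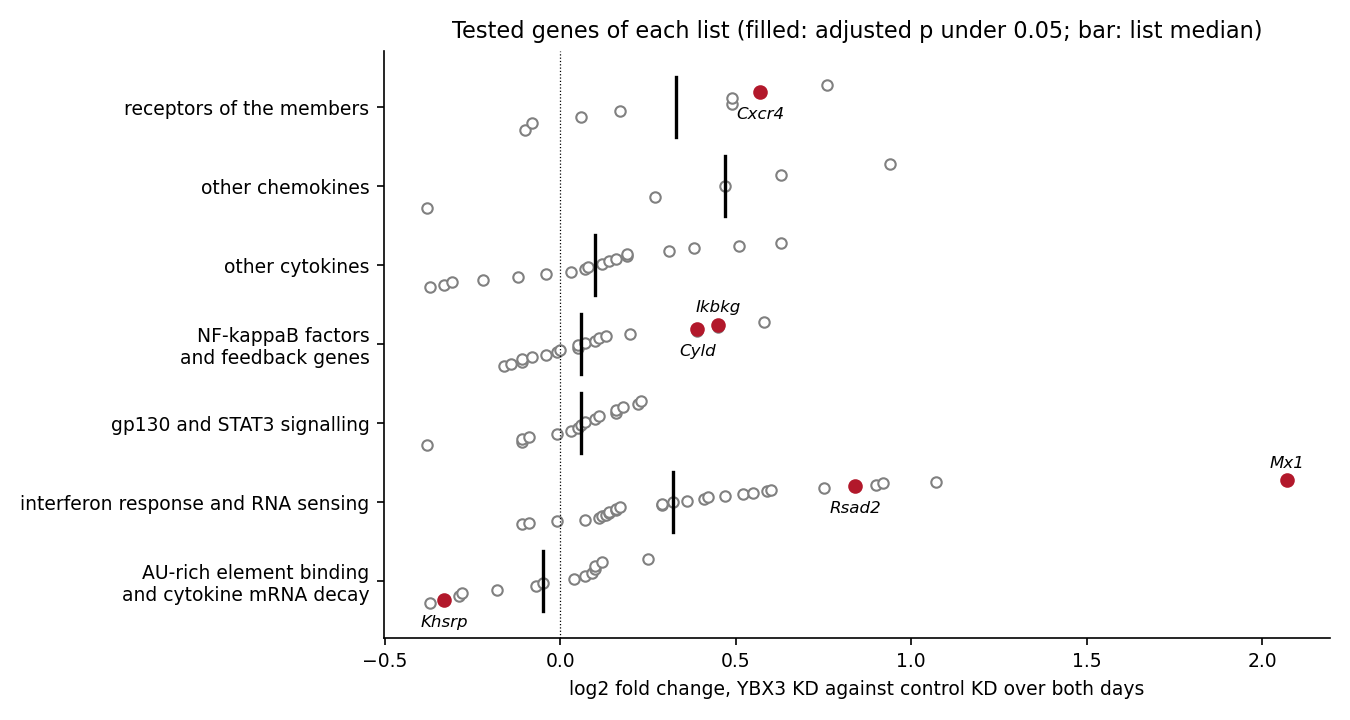
Log2 fold change of YBX3 KD against control KD over both days for the tested genes of 7 lists; filled points passed an adjusted p under 0.05 and are named, open points did not, and bars are list medians. Ybx3 (-2.81) counts in the median of the decay list and is not drawn. The interferon list has 26 of 29 points above 0, and the lists of receptors, NF-kappaB and interferon genes hold the 5 genes that rose.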

How the data were processed

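Stranded mRNA-seq of total RNA from 13 libraries of C2C12 myoblasts was used, with no library left out. The authors deposited estimated counts (expected counts) per gene for each library, as whole numbers that are not normalized. Reads had been assigned with Salmon against GRCm39 and the Gencode M30 annotation, per the methods and the labels. The step that summed transcripts to genes and the strand setting of the counting are not given in the sources used here. Symbols, coordinates and lengths were taken from GENCODE vM39, which matched 54969 of the 55642 genes.

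Counts were filtered with filterByExpr over the 4 groups (16848 genes left), scaled with TMM (factors 0.969 to 1.021) and tested with the quasi-likelihood tests of edgeR 4.0.16 in R 4.3.3. P-values were adjusted by Benjamini-Hochberg over all tested genes, and a gene was called at an adjusted p under 0.05. The threshold of the study, a fold change above 1.3 with an adjusted p under 0.001, was applied to the edgeR tests as well. The study applied it to DESeq2 with independent hypothesis weighting. YBX3 KD over both days and 1 day against 0 day were tested with siRNA and day as terms, and the other comparisons as contrasts of the 4 group means. The p-values measure the spread between these samples, which the labels call biological replicates.

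The alternatives were RLE factors, DESeq2 1.42.0, limma 3.58.1 voom with sample quality weights, no filter, at least 10 counts in every library, a replicate block by letter or by title number, leaving out each library or all 4 libraries of replicate D, no day term, fits to only the groups compared, and the length of the union of exons. They were set down before the counts were examined here, but with earlier results of these data known. Added later, with the data already seen, were DESeq2 with the letter block and the letter block without replicate D. The procedure was tested on simulated data.

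Each label gives a letter and a number for the replicate, and the 2 disagree at 1 day. Correlations of residuals between libraries of different groups were checked. They were above 0.1 in 16 of 16 pairs with the same letter (median 0.338), in 11 of 46 with different letters (median -0.146) and in 8 of 16 with the same number (median 0.0931), so the letter was used for pairs. Within letters A to C they were 0.117 to 0.358, and within letter D 0.409 to 0.73. Each of the 11 pairs above 0.1 with different letters lay among replicates A to C. The highest of these, 0.419 between control KD at 0 day C and YBX3 KD at 1 day B, was above every same-letter pair of A to C. The letter thus sets replicate D apart more clearly than it pairs replicates A to C, and pairing by letter is an assumption. No library duplicated another of its group (chi-square per degree of freedom 18.96 to 275.2).

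Log2 differences within letters used a prior count of 2. A count of 0 allows up to 3 counts at 95% confidence. The genes of the set and of the lists were chosen with earlier results of these data known. In lists, up to 3 genes that passed in each direction were named, by smallest p, and otherwise the 2 with the highest CPM. All tested receptors were named, and 2 genes most alike in pattern were named per member. Any other gene named from a list was chosen after its values were seen. Promoters were read with Python 3.11.15 and numpy 2.4.6, and figures drawn with matplotlib 3.10.9.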

Additional observations from a re-analysis of the deposited data

Results flagged for a closer look

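A library apart from the rest of its group was looked for in 22 groups of 4 libraries, and 2 were found. In control KD at 0 day, replicate D was at 19.7 CPM for Ccl7, where replicates A to C were at 36.2 to 38.7 CPM, and its gap to the nearest library was 0.87 of the range of the group. In the same library Lif was at 12.7 CPM, where replicates A to C were at 3.44 to 4.82 CPM, and the gap was 0.852 of the range. Chance alone gives about 1 in 20 groups. Both came from the same library, so they are not independent. The cause was not tested.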

How the results depend on the processing

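With all libraries and no block, 0 of the 10 genes were called over both days, and the number was 1 under 6 of the alternatives. It was 1 with limma-voom (Lif; 3088 genes called in all), with the letter block (Ccl7; 1647), without the 4 libraries of replicate D (Lif; 2155), with DESeq2 and the letter block (Ccl7; 2923), and with the letter block without replicate D (Lif; 2052), against 394 with all libraries and no block; the last 2 were chosen after seeing the data. Leaving out 1 library at a time gave 0 to 1, with 1 (Lif) only without control KD at 0 day replicate D (857 genes in all). The number of all genes called over both days was lowest, at 172, without control KD at 0 day replicate C. For YBX3 KD at 1 day it fell from 12 to 0 without YBX3 KD at 1 day replicate B. The number at 1 day was also 0 with the block by title number and in the fit to only the groups compared. At 0 day DESeq2 with the letter block gave 2 (Csf1 and Ccl7; 1267 in all). The letter block changed no other call among the members. The cause was not tested.

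Lif was called at 0.51 with limma-voom, 0.60 without replicate D, 0.62 without replicate D and with the letter block, and 0.80 without control KD at 0 day replicate D. Ccl7 was called at 0.36 with the letter block and at 0.35 with DESeq2 and the letter block. Ccl7 ran from 0.25 to 0.50 over all settings, Lif from 0.25 to 0.80, Csf1 from 0.22 to 0.40, Ccl5 from 0.38 to 0.89 and Cxcl12 from -0.27 to -0.09, so these kept their direction, as did Ybx3 (-2.94 to -2.72).

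Estimates near 0 changed sign over both days. Ccl2 was -0.10 with limma-voom, -0.01 without replicate D and -0.03 without replicate D and with the letter block. It was -0.03, -0.02, -0.01 and -0.04 without control KD at 0 day D, control KD at 1 day D, YBX3 KD at 0 day C and YBX3 KD at 1 day B (-0.04 to 0.13 over all left-out libraries). Cxcl10 was -0.04 without replicate D and -0.03 with the letter block as well, and -0.06 to 0.44 over left-out libraries (below 0 without control KD at 1 day D). Cxcl1 was -0.19 to 0.08 (above 0 without control KD at 1 day C or YBX3 KD at 1 day D), Cxcl5 -0.35 to 0.00 (without control KD at 1 day C) and Il6 -0.11 to 0.63 (below 0 without control KD at 0 day D or YBX3 KD at 0 day C).

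For 1 day against 0 day, the block by title number gave -0.06 for Ccl2, -0.17 for Ccl7, -0.47 for Ccl5 and -0.30 for Cxcl10. The letter block gave 0.42 for Ccl5, against 0.01 with no block. Ccl5 was higher at 1 day in 4 of 5 pairs with the same letter and siRNA. No filter gave -0.00 for Ccl5, and limma-voom gave 0.01 for Il6. Over left-out libraries Ccl2 was -0.07 to 0.16, Ccl7 -0.10 to 0.17, Ccl5 -0.26 to 0.29, Cxcl10 -0.09 to 0.43 and Lif -0.04 to 0.46. None of these passed. Without replicate D, or without either library of control KD at 1 day, that group is 1 library, assumed to vary like the other groups. Lengths of the union of exons moved the level to 15.1 CPM per kb in Ccl2, 3.17 in Cxcl1, 22.6 in Cxcl5, 9.87 in Cxcl12 and 93.9 in Csf1. Those of Ccl5 (1.03), Cxcl10 (0.117) and Il6 (0.0698 CPM per kb) were lower by less than 1 SD of the libraries.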
